A study of Mus musculus with 4 samples.

Results

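The comparison described here is that of liver RNA from wild-type mice on a high-fat diet (FD) with liver RNA from wild-type mice on a normal diet (ND). Its members are all probe sets other than the array's own controls that the platform annotation assigned to 1 gene, which were 10833 of the 12488 probe sets on the array and stood for 8251 genes. Of these, 5615 probe sets had a mean signal of at least 26.9 over the 4 arrays of the study, and the 4829 genes they represent are called kept genes below. The study asked how general loss of hormone-sensitive lipase, the enzyme encoded by Lipe that hydrolyses stored acylglycerols and cholesteryl esters, affects the liver. It crossed both diets with both genotypes, wild type and HSL-null, to give 4 groups. All mice were female, were fed when killed at the age of 8 months, and had eaten their diet for 6 months, with 11% of energy from fat in ND and 58% in FD. RNA of 6 livers was pooled in each group except HSL-null on FD, where 4 livers were pooled. Wild-type mice carry Lipe intact, and the sources used here do not give their strain. The HSL-null pools are given only beside the wild-type values.

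Liver takes up dietary fat as chylomicron remnants and as fatty acids released from adipose tissue, and it oxidises fatty acids, stores them as triglyceride or secretes them in lipoproteins. It makes cholesterol from acetyl-CoA in a pathway driven by sterol regulatory element binding proteins, which cholesterol in the endoplasmic reticulum holds back, and it makes fatty acids from carbohydrate when insulin is high. Liver also clears drugs and steroids through cytochrome P450 enzymes and conjugating enzymes, many of them set by sex, and secretes the acute phase proteins, whose genes respond to interleukins from macrophages.

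Each pool was hybridised to 1 Affymetrix MG_U74Av2 array, an oligonucleotide array read as 1 signal per probe set in arbitrary linear units. There was thus 1 array per group and no replicate, no difference could be tested, and the words higher and lower describe these pools only, with a precision limited by the number of arrays. Signals given below are in the deposited units, first for ND and then for FD, and a log2 ratio is that of FD to ND in wild type unless HSL-null is named. Signals under 6.1 were raised to that floor before the ratio was taken. On the wild-type arrays the median signal was 27.8 on ND and 25.2 on FD, and the trimmed mean was 100.094 and 100.087, a common scale set before deposit. The top of the scale differed more, with a highest signal of 6913 on ND, that of Alb, and of 4976 on FD, again that of Alb. The 18S control probe sets had a mean signal of 187.0 on the ND array and 80.5 on the FD array, the hybridisation spikes 482.0 and 308.4 and the poly-A spikes 475.4 and 694.7, and the part of these differences in the results was not tested. The ratio of 3' to 5' signal of Gapdh, a sign of RNA length, was 0.87 on ND and 0.86 on FD. Both wild-type arrays came from 1 chip lot and 1 solution lot and were run on 1 fluidics station in different modules. The 4 arrays together used 2 solution lots, so at least 1 HSL-null array had another lot. Its part in the values of the HSL-null pools was not tested. Lipe itself had a signal of 28.0 on ND and 34.0 on FD, and its mean over the 4 arrays lay under the filter.

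FD liver had 38 genes 2-fold or more higher than ND liver, or 0.787% of the kept genes, and 114 genes 2-fold or more lower, or 2.36%, together 3.15%. A 2-fold difference is a log2 ratio of 1 in size. Over all kept genes the median log2 ratio was -0.047 and the SD 0.439, and 80.0% of the genes lay within 0.5 of 0. Of all kept genes, 44% had a ratio above 0 and 55.7% a ratio below 0. The wild-type counts of list members below stand against these shares. The only estimate of error these arrays allow is the disagreement between probe sets of the same gene. Among 687 genes with a second kept probe set, it gave an SD of 0.317 for 1 log2 ratio, and the ratios of 4.22% of these pairs differed by 2-fold or more. This estimate leaves out variation between mice and any error that all probe sets of an array share. The spread was wider among dim genes. Among the 1208 dimmest genes, with geometric mean signals up to 50.8 over both wild-type arrays, the SD was 0.54, with 12 genes higher and 70 lower, whereas among the 1207 brightest, from 238.1, it was 0.36, with 9 higher and 5 lower. Median scaling moved the median of all genes from -0.047 to 0.096 and gave 61 higher and 74 lower genes, so that 54.8% of the genes counted were lower in place of 75%. Quantile normalization gave 48 higher and 84 lower (63.6%) and cyclic loess 47 and 87 (64.9%).

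**Figure D1:**
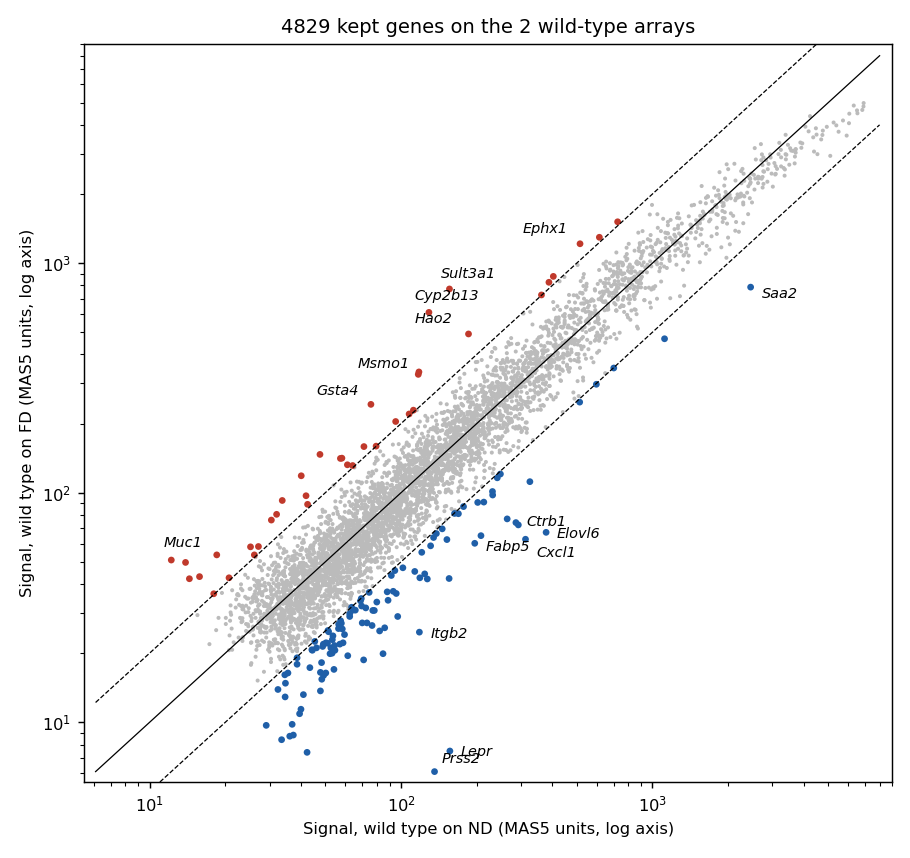
Signal of the 4829 kept genes on the 2 wild-type arrays, with ND on the x axis and FD on the y axis, both in MAS5 units on log axes. The solid line marks equal signals and the dashed lines a 2-fold ratio. The 38 red genes are 2-fold or more higher on FD and the 114 blue genes 2-fold or more lower, and most blue points lie at signals under 100 on ND.

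The highest ratios were those of Sult3a1 and Cyp2b13. Sult3a1, a sulfotransferase of female liver, had a signal of 155.8 on ND and 771.5 on FD, a log2 ratio of 2.31. Cyp2b13, a cytochrome P450 of female liver, had 129.1 on ND and 610.0 on FD, a log2 ratio of 2.24. Both genes lay several times above their ND signal, at levels well over the floor. In HSL-null liver Sult3a1 had 424.1 and 464.8 and Cyp2b13 was at the floor on both diets, with 3.2 and 1.3. Hao2, a peroxisomal oxidase of hydroxy acids with higher expression in females, had 185.5 on ND and 491.3 on FD (1.41). The female-biased list had 7 kept genes and a median of 0.64, with 4 above 0, 3 below 0 and 3 of them 2-fold higher. Its median was 1.02 without probe sets that carry a suffix letter in their name, which left out Cyp3a16 (-0.37), and 0.0 with no filter on low signals. The other member of that list above 0 was Cyp2b9, a neighbour of Cyp2b13, with 1046 on ND and 1632 on FD (0.64), while Cyp17a1, a steroid hydroxylase, had 950.3 and 911.5, Cyp3a16 had 145.7 and 112.6 and Prom1, a membrane glycoprotein, had 93.6 and 61.5 (-0.61). Male-biased genes had a median of -0.24 over 7 genes, which was 0.03 under quantile normalization and 0.19 without suffix probe sets.

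Phase II conjugation is the attachment of groups such as glutathione, sulfate or glucuronate, and its list also holds epoxide hydrolases. Among the 27 kept genes of the list, 20 were above 0, against 44% of all kept genes. Of the 27, 4 were 2-fold higher, against 0.787% of all kept genes, and 0 lower. Sult3a1, 1 of the 4, is also in the female-biased list. The median was 0.30, against -0.047 over all kept genes, and ranged from 0.27 to 0.44 over the alternatives. Gsta4, a glutathione transferase that acts on aldehydes from lipid peroxidation, had 75.9 on ND and 242.5 on FD (1.68). Ephx1, the microsomal epoxide hydrolase, had 515.0 on ND and 1214 on FD (1.24), and Gsta2, another glutathione transferase, had 95.2 on ND and 204.2 on FD (1.10). These genes were higher at quite different signal levels. The transferases Gstk1 (503.6 and 980.9) and Mgst3 (326.3 and 613.7) came just short of 2-fold, whereas the abundant Gstm1 (4056 and 3927) and Gstp1 (1788 and 1789) were near equal on the diets. Of 22 kept cytochrome P450 genes and their receptors, 16 were above 0, with a median of 0.21, and 2 were 2-fold higher. The 2 were Cyp2b13, also of the female-biased list, and Cyp2f2. Cyp2f2 had 614.8 on ND and 1295 on FD (1.08). Cyp3a11, the main drug oxidase of its subfamily in mouse liver, had 2530.2 on ND and 2423 on FD (-0.06), and Cyp2e1, which oxidises ethanol and ketone bodies, had 6044 on ND and 4067 on FD (-0.57, but -0.12 under quantile normalization). Antioxidant and NRF2 target genes had a median of -0.06 over 21 genes, with 7 of 10 alternatives on the same side of 0. Gpx4, which reduces lipid hydroperoxides, had 227.6 on ND and 390.0 on FD (0.78), and Nqo1, at 20.0 and 25, lay under the filter.

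Every kept enzyme of cholesterol synthesis had a higher signal on FD. All 16 log2 ratios were above 0, where 44% of all kept genes were, with a median of 0.57, and 3 genes were 2-fold higher. The median stayed between 0.53 and 0.71 under the 10 alternatives. Msmo1, a sterol methyl oxidase, had 117.8 on ND and 335.7 on FD (1.51). Cyp51, which removes a methyl group from lanosterol, had 32.0 on ND and 80.5 on FD (1.33), and Mvd, which makes isopentenyl diphosphate, had 25.2 on ND and 58.1 on FD (1.21). These enzymes, with the highest ratios of the pathway, belong to its mevalonate and its sterol stages. Nsdhl, the next in order, acts beside Msmo1 in sterol demethylation and had 198.5 on ND and 343.1 on FD (0.79). Its other kept probe sets gave 1.08 and 0.16. Hmgcs1, which makes the precursor of mevalonate, had 266.9 on ND and 452.2 on FD (0.76), Fdft1, squalene synthase, had 269.4 on ND and 441.3 on FD (0.71), and Sqle, squalene epoxidase, had 186.3 on ND and 258.4 on FD (0.47). Fdps, farnesyl diphosphate synthase, was the brightest enzyme and had the lowest ratio, with 1133 on ND and 1211 on FD (0.10), well inside the SD of 0.317. In HSL-null liver the median of the same 16 genes was -0.96, with 1 above 0 and 15 below 0, where 56.9% of all kept genes were above and 42.8% below. The difference between the genotypes was not tested.

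**Figure D2:**
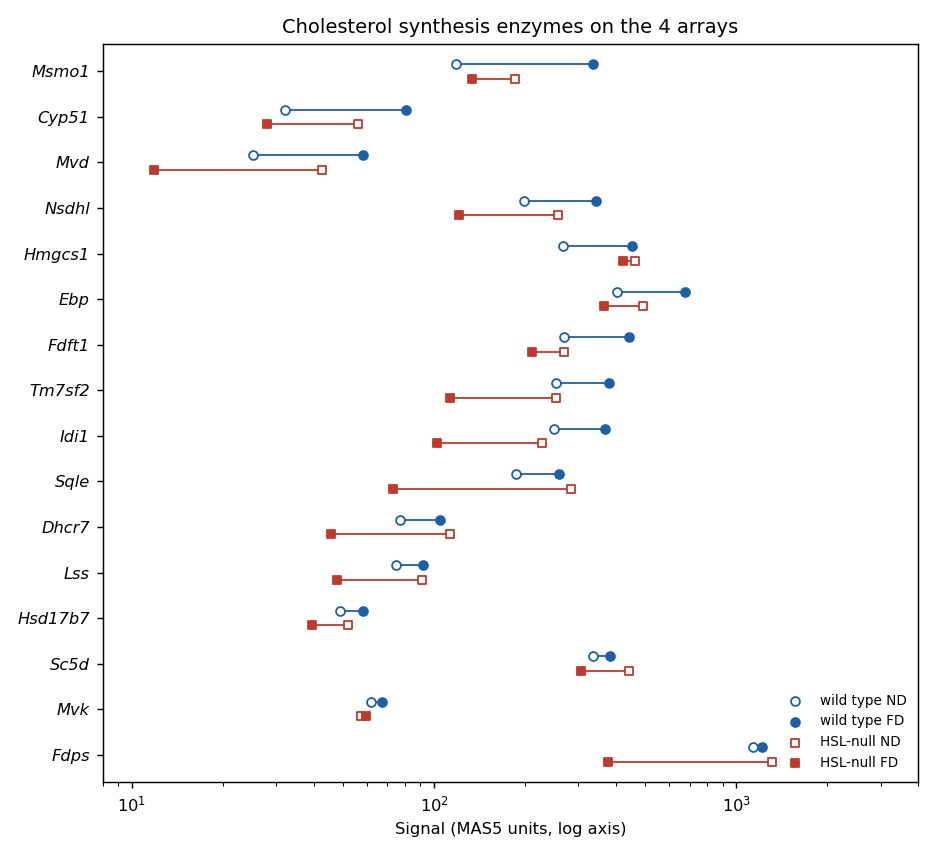
Signal of the 16 kept enzymes of cholesterol synthesis on all 4 arrays, in MAS5 units on a log axis, with 1 line per genotype joining ND (open) to FD (filled), and genes sorted by the wild-type ratio. Each wild-type line runs from a lower ND to a higher FD signal, from Msmo1 at the top (117.8 and 335.7) to Fdps at the bottom (1133 and 1211), and 15 of the 16 HSL-null lines run the other way.

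The promoters of these enzymes and of some other lists were searched on both strands for short motifs. Among the motifs was the binding element of sterol regulatory element binding proteins, spelled TCACNCCAC. A RefSeq window of 250 bases before to 50 bases after the transcript start was found for 13 of the 16 genes. The element was found for 1 of the 13 genes, Hmgcs1, or 7.69%. The share was 1.61% of the 3924 kept genes with a window and 1.44% of all 27025 genes with one. The element was also found for 2 of 26 acute phase genes, again 7.69%, a list that was lower on FD. Cytosolic heat shock genes had 1 of 15 (6.67%), phase II conjugation 1 of 22 (4.55%), and the female-biased and pancreas lists 0. A difference between the lists was not tested. The window of Hmgcs1 is shown with the matching letters in capitals, read on the plus strand of chr13:119690101-119690400 in GRCm38.p6. The match begins 137 bases before the start.
Hmgcs1: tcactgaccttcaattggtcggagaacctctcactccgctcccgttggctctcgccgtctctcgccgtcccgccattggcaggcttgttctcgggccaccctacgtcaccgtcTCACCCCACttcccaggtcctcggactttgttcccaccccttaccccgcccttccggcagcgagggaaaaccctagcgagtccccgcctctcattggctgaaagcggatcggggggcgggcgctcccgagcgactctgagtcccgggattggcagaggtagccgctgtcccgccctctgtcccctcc
The E-box CACGTG was found for 3 of the 13 genes, or 23.1%, against 12.8% of the kept genes.

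Genes of sterol efflux and transport did not share the direction of the synthesis enzymes. The list of sterol regulation and uptake had a median of -0.33 over 7 genes, with 2 above 0 and 5 below 0, and none 2-fold different. Abca1 and Abcg1, sterol exporters induced by oxysterol-bound liver X receptors, had 366.1 and 240.9 (-0.60) and 153.8 and 102.0 (-0.59), and a second probe set of Abca1 gave -0.70. Npc1, which releases cholesterol from lysosomes, had 489.2 and 378.5 (-0.37). In bile acid synthesis and transport, with a median of 0.10 over 12 genes, Cyp7a1, the rate-limiting enzyme, had 111.1 on ND and 175.1 on FD (0.66), and Cyp7b1, of the alternative pathway, had 59.8 on ND and 97.3 on FD (0.70, or 0.46 at a second probe set).

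The lowest ratio above the floor belonged to Lepr, which encodes the leptin receptor. Its signal was 156.4 on ND and 7.5 on FD, 20.9-fold lower, a log2 ratio of -4.38, which was -2.55 with the floor raised to the median signal. In HSL-null liver it had 92.3 and 17.0 (-2.44), so that the signal was lower on FD in both genotypes. A second probe set of Lepr, dim on all arrays, had 5.3 and 8.0 in wild type, and the sources used here do not say which transcripts each probe set reads. Elovl6, which elongates palmitate to stearate and is driven by insulin and SREBP, had 377.5 on ND and 67.2 on FD (-2.49), with -1.45 at a second probe set. Fabp5, a fatty acid binding protein of several tissues, had 196.4 on ND and 60.2 on FD (-1.71). In HSL-null liver Elovl6 had 327.4 and 103.0 (-1.67) and Fabp5 210.3 and 66.9 (-1.65). These genes, with Lepr and the pancreas gene Prss2, were the 4 that were 2-fold lower in both genotypes.

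The remaining fatty acid synthesis genes stood apart from Elovl6. The median over 14 genes was -0.06, with 5 above 0, and 1 gene, Elovl6, was 2-fold lower. Its sign was the same in 9 of 10 alternatives. Scd1, the liver's stearoyl-CoA desaturase, had 5918 on ND and 3592 on FD (-0.72, or -0.30 under quantile normalization), and a second probe set gave -0.61. Fasn, fatty acid synthase, had 718.6 on ND and 468.3 on FD (-0.62). Srebf1, the gene of SREBP-1, had 690.6 on ND and 737.3 on FD (0.09), and Pgd, which supplies NADPH through the pentose phosphate pathway, had 80.8 on ND and 139.1 on FD (0.78). Acly (798.6 and 699.9), Me1 (454.1 and 430.9) and Thrsp (1235 and 1303) lay near equal signals. Genes of lipogenesis thus had ratios on both sides of 0, with Elovl6 and Pgd at the ends.

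Transcripts of fatty acid oxidation had a higher median in the peroxisomal list than in the mitochondrial list. Peroxisomal and omega oxidation genes had a median of 0.29 over 19 genes. Of these, 16 were above 0, against 44% of all kept genes, and 1 was 2-fold higher. Acot1, an acyl-CoA thioesterase induced by PPARA, had 112.0 on ND and 228.8 on FD (1.03), and Ehhadh, the peroxisomal bifunctional enzyme, had 171.2 on ND and 315.4 on FD (0.88). The omega hydroxylases Cyp4a10 and Cyp4a14 had 700.1 and 979.8 (0.48) and 1080.1 and 1378 (0.35). Most of the list was thus higher by less than 2-fold, while Scp2 (3361 and 2558) and Abcd3 (1936 and 1567) were lower. Mitochondrial oxidation and ketogenesis genes had a median of 0.05 over 15 genes, with 10 above 0, 5 below 0 and none 2-fold different. Decr1 (370.2 and 524.9, 0.50), Slc25a20 (730.7 and 1009, 0.47) and Etfdh (417.7 and 543.8, 0.38) had ratios close to those of the omega hydroxylases. Cpt1a, which admits fatty acids to the mitochondrion, had 1480.3 on ND and 1281 on FD (-0.21), and Acads, the short-chain dehydrogenase, had 263.5 on ND and 405.2 on FD (0.62, but -0.11 at a second probe set). Ppara itself had 343.5 and 368.0 (0.10).

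Genes of fat uptake, storage and export had list medians from -0.21 to 0.13, against -0.047 over all kept genes. Uptake and binding genes had -0.08 over 13 genes with 2 of them 2-fold lower, Fabp5 and Lrp1, an endocytic receptor for remnants, which had 513.4 on ND and 248.0 on FD (-1.05). Fabp1, the abundant liver fatty acid binding protein, had 5093 on ND and 2931 on FD (-0.80, or -0.48 in the alternative nearest to 0). Cd36, a fatty acid translocase, had 28.1 on ND and 36.7 on FD (0.39). Triglyceride and droplet genes had 0.13 over 16 genes, with Plin2, the main droplet coat protein, at 1896 and 1687 (-0.17), Lipa, the lysosomal acid lipase, at 179.9 and 257.6 (0.52) and Mgll, monoglyceride lipase, at 231.7 and 325.9 (0.49). Plin2, often used as a measure of stored fat, was thus close to equal in the 2 pools. Apolipoproteins had -0.21 over 15 genes, which was 0.06 under quantile normalization. Apob had 1176 on ND and 703.2 on FD (-0.74), Apoe 6829 on ND and 4645 on FD (-0.56, or -0.05 under quantile normalization) and Apoa4, the apolipoprotein of fat absorption and of steatotic liver, 2724 on ND and 2975 on FD (0.13).

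Subunits of the respiratory chain were higher on FD by small amounts. Of 50 kept genes of oxidative phosphorylation, 38 were above 0, against 44% of all kept genes, and none was 2-fold different. Their median was 0.21 and ranged from 0.18 to 0.35 over the alternatives. Complex I, NADH dehydrogenase, stood out with 21 of 23 genes above 0 and a median of 0.29. Complex V, the ATP synthase, had 4 of 9 above 0. Ndufb8 had 533.4 on ND and 895.7 on FD (0.75) and Ndufa2 418.7 on ND and 648.7 on FD (0.63), whereas Sdhd of complex II had 1322 on ND and 934.7 on FD (-0.50). The ratios of most single subunits were smaller than 2 SD of the probe set error, 0.634. In HSL-null liver, 42 of the 50 genes were below 0, against 42.8% of all kept genes, with a median of -0.10. Proteasome subunits had a median of 0.17 over 28 genes with 20 above 0, and Psmb5, a catalytic subunit, had 465.6 on ND and 726.7 on FD (0.64, or 0.76 at a second probe set). Cytosolic ribosomal proteins had -0.07 over 22 genes, or 0.07 with median scaling.

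Cytosolic heat shock genes had a median of 0.19 over 18 genes, with 14 above 0 and 1 of them 2-fold higher. Bag3, a partner of the HSP70 chaperones, had 79.6 on ND and 159.5 on FD (1.0, or 0.85 at a second probe set). The inducible chaperone genes Hspa1a and Hspa1b, near-identical copies whose probes may cross-hybridise, had 33.4 and 64.1 (0.94) and 173.0 and 285.5 (0.72). Stip1, which joins HSP70 to HSP90, had 85.0 on ND and 145.5 on FD (0.78). Hspa4 (349.5 and 230.1) and the mitochondrial chaperone Hspd1 (2487 and 1837) were below 0. The heat shock element, which alternates GAA and TTC units, was searched on both strands. It was found for 4 of the 15 genes of this list with a window, or 26.7%. The share was 0.586% of the kept genes and 0.662% of all genes with a window. Those genes were Chordc1 (0.43), Hspe1 (0.27), Hsph1 (0.01) and Hspd1 (-0.44), so that windows with the element belonged to genes on both sides of 0. The windows of Chordc1, on the plus strand of chr9:18292017-18292316, and Hspe1, on the plus strand of chr1:55087898-55088197, are shown with the matching letters in capitals. The window of Hspe1 overlaps that of Hspd1 on the other strand and shares its element.
Chordc1: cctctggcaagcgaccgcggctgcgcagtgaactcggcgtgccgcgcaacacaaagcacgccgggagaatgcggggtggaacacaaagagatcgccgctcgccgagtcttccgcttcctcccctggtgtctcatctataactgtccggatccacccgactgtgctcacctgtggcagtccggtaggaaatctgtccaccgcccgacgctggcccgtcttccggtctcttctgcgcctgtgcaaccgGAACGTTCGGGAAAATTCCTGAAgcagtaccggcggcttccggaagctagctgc
Hspe1: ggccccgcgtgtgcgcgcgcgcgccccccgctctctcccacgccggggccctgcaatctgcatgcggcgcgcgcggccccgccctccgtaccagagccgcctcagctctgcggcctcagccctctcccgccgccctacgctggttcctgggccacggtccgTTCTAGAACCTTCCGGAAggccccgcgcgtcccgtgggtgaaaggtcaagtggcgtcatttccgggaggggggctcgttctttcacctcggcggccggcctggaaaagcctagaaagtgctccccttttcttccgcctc
Genes of endoplasmic reticulum stress had a median of -0.03 over 25 genes, with Hspa5, the chaperone BiP, at 1630.2 and 1821 (0.16), Pdia3 at 529.9 and 864.1 (0.71), Herpud1 at 912.9 and 1378 (0.59) and Atf4 at 291.6 and 190.4 (-0.61).

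Glucose and amino acid metabolism included bright genes with lower signals on FD. G6pc, which releases glucose from the liver, had 1286 on ND and 717.6 on FD (-0.84). Fbp1 had 4389 on ND and 3060.5 on FD (-0.52, but -0.21 in the alternative nearest to 0). Pck1, the first committed enzyme of gluconeogenesis, had 927.1 on ND and 689.7 on FD (-0.43). The list of gluconeogenesis, glycolysis and glycogen as a whole had a median of 0.08 over 15 genes. Urea cycle and amino acid breakdown genes had a median of -0.16 over 26 genes. Of these, 19 were below 0, against 55.7% of all kept genes, and 1 was 2-fold lower. That gene was Asns, asparagine synthetase, an ATF4 target, with 145.8 on ND and 69.6 on FD (-1.07). Cps1, the entry enzyme of the urea cycle, had 4528 on ND and 2982 on FD (-0.60, or -0.28 under quantile normalization). Apart from Lepr, the 23 genes of the GH, IGF and insulin axis had no 2-fold difference, with a median of -0.14. Igfbp1, which insulin represses, had 419.7 on ND and 270.8 on FD (-0.63), Igf1 had 1937 on ND and 1941 on FD and Igf1r 52.0 on ND and 30.5 on FD (-0.77).

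Clock genes had a median of -0.08 over 16 genes, with members at both ends. Arntl, which encodes the activator BMAL1, had 34.5 on ND and 16.1 on FD (-1.10, or -0.37 with the floor at the median), and Per1, a repressor, had 49.9 on ND and 27.0 on FD (-0.89). Usp2, a clock output, had 104.1 on ND and 189.1 on FD (0.86, or 0.76 at a second probe set). In iron and heme metabolism, with a median of -0.02 over 18 genes, Blvra, biliverdin reductase, was the 1 gene 2-fold higher, with 30.5 on ND and 76.0 on FD (1.32). Alas1, the first enzyme of heme synthesis, had 1727 on ND and 1859 on FD (0.11). Cell cycle genes had a median of -0.03 over 19 genes. Plk1, a mitotic kinase, was the 1 gene there 2-fold lower, with 40.0 on ND and 11.4 on FD (-1.81), but a second kept probe set gave -0.16. Nuclear receptors had a median of -0.06 over 18 genes, with Pparg, which drives fat storage, at 22.6 and 35.7 (0.66) and Rxrb at 248.9 and 171.2 (-0.54).

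**Figure D3:**
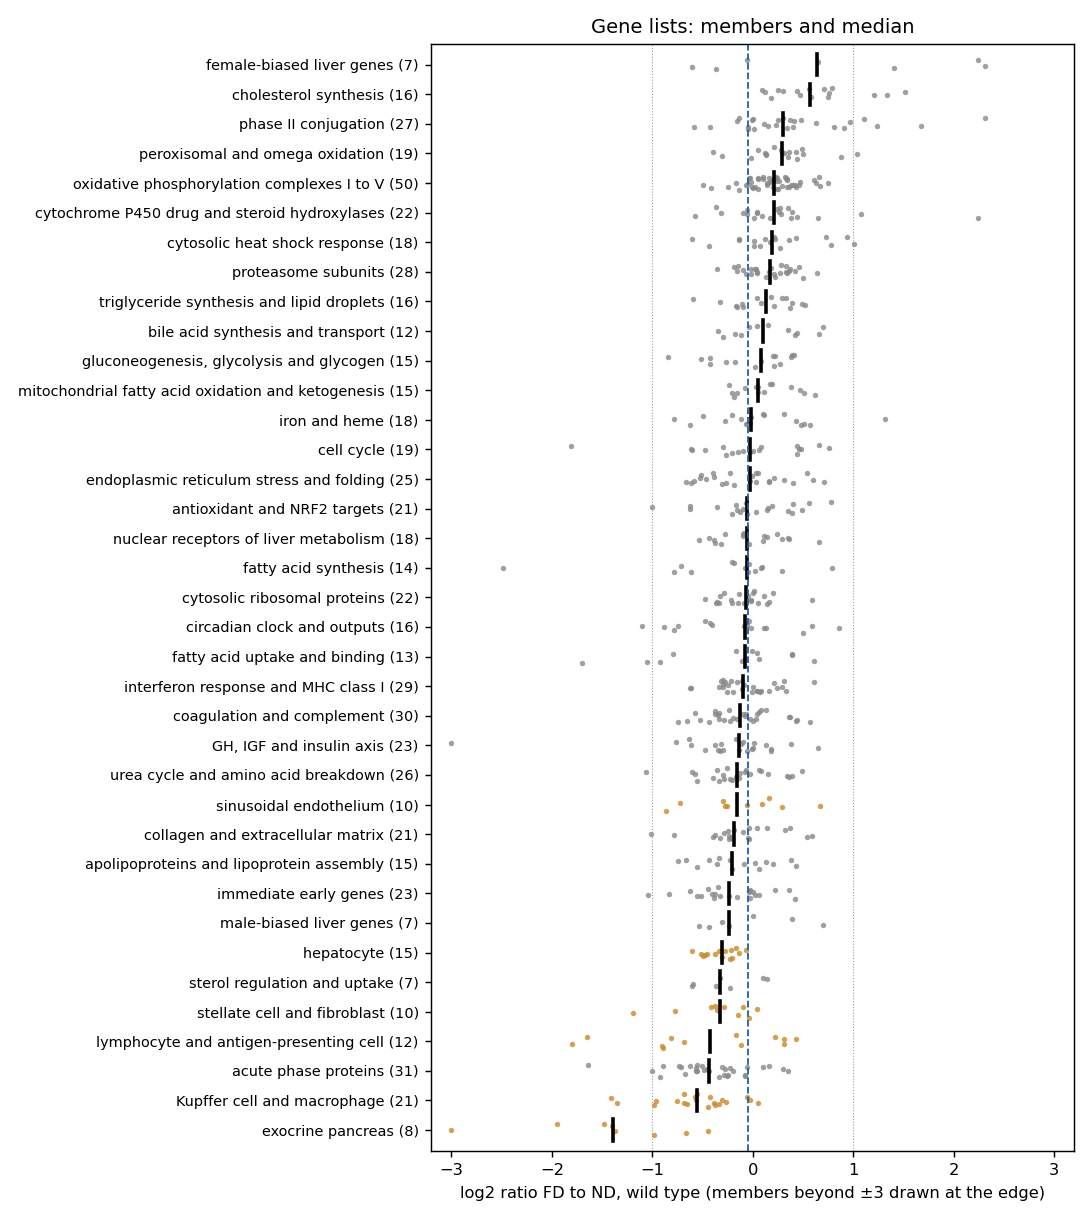
Log2 ratio of FD to ND in wild type for each kept member (points) of the gene lists with at least 7 kept members, with the number of members in brackets and the list median as a black bar. Grey points belong to functional lists and orange points to cell type markers, the blue dashed line marks the median of all kept genes, -0.047, and the dotted lines a 2-fold ratio. Cholesterol synthesis (median 0.57) and female-biased genes (0.64) lie at the right end, and exocrine pancreas (-1.39), macrophage (-0.56) and acute phase genes (-0.44) at the left.

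Genes of the acute phase list were mostly lower on FD. The list holds genes of proteins that hepatocytes secrete in inflammation. It also holds the metallothioneins Mt1 and Mt2, receptor genes such as Il1r1 and Il6ra, and Stat3. Of 31 kept genes, 27 were below 0, where 55.7% of all kept genes were, with a median of -0.44 that ranged from -0.45 to -0.30 over the alternatives, and 2 genes were 2-fold lower. Saa2, serum amyloid A, had 2456 on ND and 785.7 on FD (-1.64), with -2.68 at a second probe set, and closely related Saa genes may share its probes. Mt2, a metallothionein, had 701.5 on ND and 349.2 on FD (-1.01) and Mt1 had 985.2 on ND and 639.8 on FD (-0.62). Lcn2, lipocalin, had 489.4 on ND and 257.0 on FD (-0.93), but a dimmer probe set gave 0.07. Orm2 (503.7 and 306.1), Serpina3n (1878 and 1172), Apcs (1628 and 1099) and Hp (5496 and 3734) were lower by less than 2-fold, whereas Hamp, the iron hormone hepcidin, had 3384 on ND and 3619.8 on FD (0.10). The signals of Hp lay near the top of the scale, where the arrays differed. The part of that difference in its ratio was not tested. The receptor gene Il1r1 had 56.0 on ND and 30.1 on FD (-0.90) and Stat3, the transcription factor that interleukin 6 activates, had 175.3 on ND and 105.5 on FD (-0.73). Complement and coagulation genes had a median of -0.13 over 30 genes, and Hc, complement component C5, had 1336 on ND and 797.4 on FD (-0.74). Interferon response and MHC class I genes had -0.10 over 29 genes, with Iigp1 at 1998 and 1291 (-0.63), Cxcl9 at 100.6 and 153.6 (0.61) and Irf7 at 115.9 and 91.5 (-0.34).

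Cxcl1, Itgb2 and Cd72 were among the 15 lowest genes. Cxcl1, which attracts neutrophils, had 312.6 on ND and 62.7 on FD (-2.32), with -2.26 at a second probe set. Itgb2, the shared chain of leukocyte integrins, had 118.3 on ND and 24.7 on FD (-2.26), and Cd72, a surface protein of B cells, had 84.8 on ND and 19.9 on FD (-2.09). The 21 markers of Kupffer cells and macrophages had a median of -0.56. Of these, 20 were below 0, against 55.7% of all kept genes, and 2 were 2-fold lower, against 2.36%. The cytokine gene Il1b had 53.2 on ND and 20.0 on FD (-1.41), Itgax, an integrin of myeloid cells, 78.3 on ND and 30.7 on FD (-1.35) and Clec4f, a lectin found on Kupffer cells, 572.2 on ND and 386.7 on FD (-0.57). Mrc1 (142.6 and 139.8), Cd14 (146.2 and 140.7) and Msr1 (28.6 and 29.6) were near equal. Lymphocyte and antigen-presenting cell markers had a median of -0.43 over 12 genes with 2 of them 2-fold lower. Ptprc, the leukocyte antigen CD45, had 47.8 on ND and 13.7 on FD (-1.80), and a second probe set gave -1.76. Jchain, of secreted immunoglobulin, had 48.4 on ND and 15.4 on FD (-1.65), while the MHC class II genes H2-Aa (262.9 and 353.7) and H2-Ab1 (101.5 and 118.2) were above 0. In bulk RNA, fewer cells of a type and less RNA per cell cannot be told apart. Immediate early genes had a median of -0.24 over 23 genes, with Egr1 at 94.5 and 45.8 (-1.04), Btg2 at 148.7 and 83.1 (-0.84) and Fos at 38.6 and 51.6 (0.42).

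Markers of the exocrine pancreas, an organ next to the liver, had the lowest median of the lists. All 8 kept genes were below 0, with a median of -1.39 and 5 of them 2-fold lower, and their summed signal was 1156 on ND and 480.2 on FD. Prss2, a trypsinogen, had 135.9 on ND and 4.6 on FD, below the floor, and was at least 22.3-fold lower. Ctrb1, chymotrypsinogen, had 286.3 on ND and 74.1 on FD (-1.95), Clps, colipase, 118.8 on ND and 42.6 on FD (-1.48) and Reg1 58.8 on ND and 22.2 on FD (-1.41). In HSL-null liver Ctrb1 had 67.9 and 49.8 and Clps 38.2 and 43.2, so the high signals were those of the wild-type ND array. Their part in the other results was not tested. Without the markers of other cell types, 4756 of the 4829 kept genes remained, with 38 higher and 104 lower. Of the 114 lower genes, 10 were markers of other cell types, 11 were in functional lists and 93 in none. Of the 38 higher genes the numbers were 0, 13 and 25. The share of all kept genes in functional lists was not counted, so these numbers are a description only.

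Markers of hepatocytes themselves checked the labelled tissue. All 15 kept hepatocyte genes were bright or moderate on both arrays, with Alb at 6913 and 4976 and Cebpa at 2093 and 1607. All 15 were below 0, with a median of -0.31 that was -0.01 under quantile normalization, and Alb then had 0.0. Stellate cell and fibroblast markers had a median of -0.33 over 10 genes, with Pdgfra, a receptor of stellate cells, at 58.4 and 25.5 (-1.20) and Reln at 198.9 and 116.4 (-0.77). Collagen and matrix genes had -0.19 over 21 genes, with Bgn, biglycan, at 598.1 and 296.6 (-1.01, but 0.09 at a second probe set), Col1a1 at 36.8 and 35.8 (-0.04) and Timp1, an inhibitor of matrix proteases, at 76.5 and 111.4 (0.54). Endothelial markers had -0.16 over 10 genes, or 0.16 with the filter at 100, and bile duct markers 0.18 over 4. Red cell markers had -0.04 over 4, with Hba-a1 at 2707 and 2808, and adipocyte markers 0.40 over 2. The neutrophil and muscle lists kept 1 gene each, Csf3r at 109.2 and 69.2 and Pvalb at 126.6 and 126.5.

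**Figure D4:**
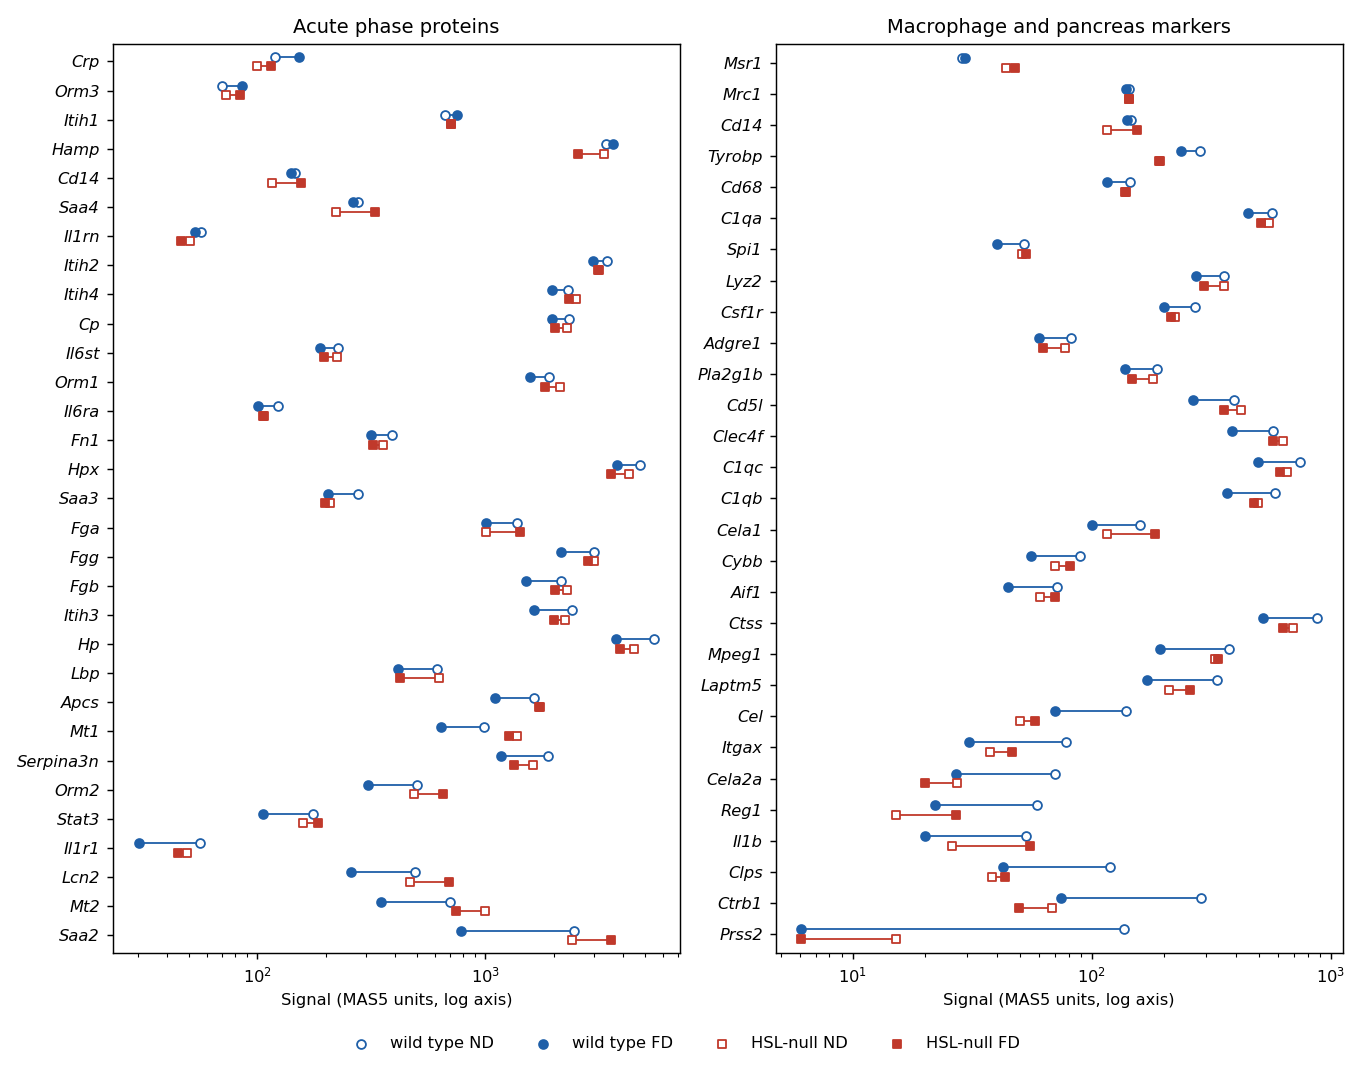
Signal of the 31 kept acute phase genes (left) and of the macrophage and exocrine pancreas markers (right) on all 4 arrays, in MAS5 units on log axes, with 1 line per genotype joining ND (open) to FD (filled) and values under the floor drawn at 6.1. The wild-type FD point lies left of the ND point for 27 of 31 acute phase genes, 20 of 21 macrophage markers and 8 of 8 pancreas markers.

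Several genes among the extremes fit no list. Lgals1, galectin-1, had 117.1 on ND and 327.6 on FD (1.48) and Gas2, a protein of the actin cytoskeleton, 47.6 on ND and 146.8 on FD (1.62). Muc1, a membrane mucin, had 12.2 on ND and 50.9 on FD (2.06, or 0.93 with the floor at the median), Pik3r2, a regulatory subunit of PI3-kinase, 18.5 on ND and 53.6 on FD (1.53) and Aloxe3, an epidermal lipoxygenase, 14.4 on ND and 42.2 on FD (1.55, or 0.66). Their ND signals were among the dimmest of the kept genes. Immt, of the inner mitochondrial membrane, had 33.7 on ND and 92.5 on FD (1.46), but a second, dimmer probe set gave -0.13. Sac3d1 had 40.1 on ND and 118.5 on FD (1.56), but 0.33 at a second kept probe set. Gm7775 (13.9 and 49.7, 1.84) and Gtf2f2, a subunit of TFIIF, (15.8 and 43.1, 1.45) completed the 15 highest genes. On the lower side, Limk1, a kinase that acts on actin filaments, had 155.3 on ND and 42.3 on FD (-1.88), Twist2, a transcription factor, 71.0 on ND and 18.7 on FD (-1.92) and Erdr1 292.7 on ND and 72.4 on FD (-2.02, but -0.34 at a second probe set). Ccdc186 (42.3 and 7.4), Igh-VS107 (37.3 and 8.8), Colq (36.1 and 8.7), T2 (33.5 and 8.4), Chrna7 (36.9 and 9.8) and Rgs2 (39.5 and 10.9) were dim on both arrays, and each was less than 2-fold lower with the floor at the median. Of the 38 higher genes 4 had a second kept probe set, all 4 in the same direction and 0 of them 2-fold higher. Of the 114 lower genes 14 had one, with 12 in the same direction and 5 of them 2-fold lower.

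The diet ratio in HSL-null liver, which shares no array with the wild-type ratio, was set beside these values. At least 1 of the HSL-null arrays was run with another solution lot than the wild-type arrays. In that genotype 40 genes were 2-fold or more higher on FD, or 0.828%, and 30 lower, or 0.621%, with an SD of 0.324 over all kept genes. As a description, the ratios of the 4829 genes in the 2 genotypes correlated with a Pearson coefficient of -0.026 and a Spearman coefficient of -0.048, where genes do not stand for replicates. None of the 38 genes higher in wild type was 2-fold higher in HSL-null liver, and 1, Mvd, was 2-fold lower. Of the 114 lower genes, 4 were lower in both, or 3.5% of the wild-type and 13.3% of the HSL-null genes, and 10 were higher in HSL-null liver, or 8.8% and 25%. The 114 lower genes had a median of -1.30 in wild type and 0.15 in HSL-null liver, where 77 of them were above 0, as were 56.9% of all kept genes. Over all 4 arrays, the wild-type ND signal was the highest for 84 of the 114 lower genes and the wild-type FD signal the lowest for 104. For the 38 higher genes, wild type on FD was the highest in 32 and wild type on ND the lowest in 30. Counts of this kind follow in part from choosing genes by the ratio of these same arrays and are given as a description.

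**Figure D5:**
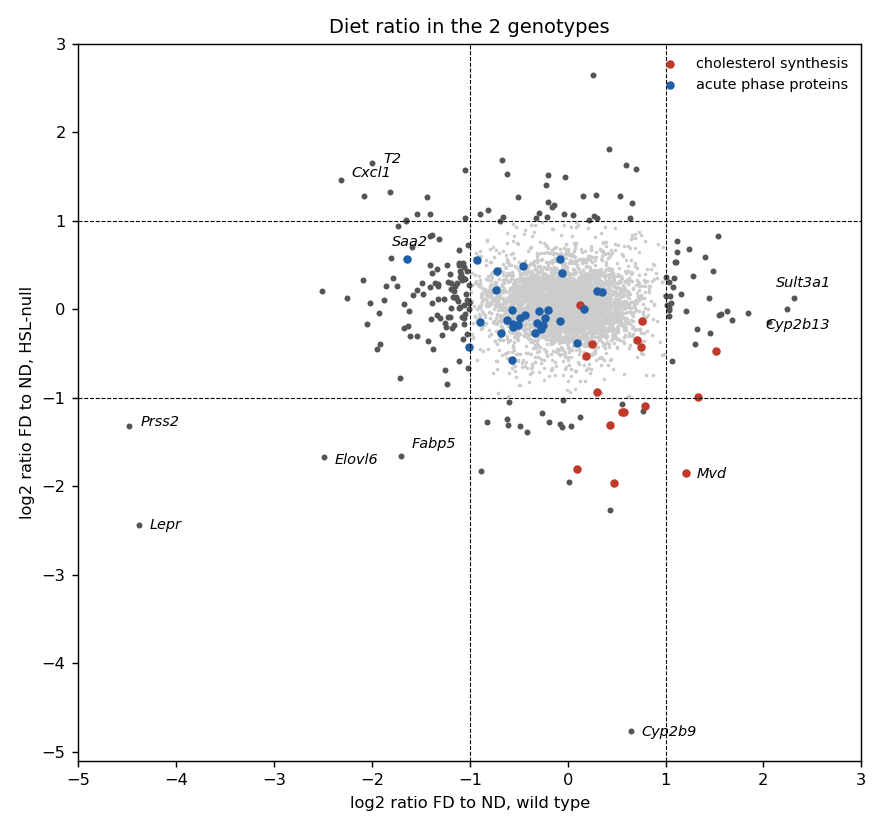
Log2 ratio of FD to ND in HSL-null liver (y axis) against that in wild type (x axis) for the 4829 kept genes, with dashed lines at a 2-fold ratio, dark points for genes past it in either genotype, red points for cholesterol synthesis and blue points for acute phase genes. The red points lie right of 0 and, but for 1, below 0, and Lepr, Elovl6, Fabp5 and Prss2 lie 2-fold lower in both.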

How the data were processed

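Liver RNA was measured on 4 Affymetrix arrays, 1 pool and 1 array per group, of which both wild-type arrays entered the comparison. The values deposited by the authors are linear intensities, 1 per probe set and array, made with MAS5, per the submitters' processing notes. MAS5 summarises the probes of a set, and the sources used here give no version of it. The deposited intensities had means, trimmed by 2% at each end, of 100.094 on ND and 100.087 on FD, so they were on a common scale. Further deposited files hold run settings only.

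Of 12422 probe sets other than controls, the platform annotation gave 1 gene to 10833, several to 396 and none to 1193, and 10817 were matched in a RefSeq gene table of GRCm38.p6. Signals under 6.1, the 25th percentile over all arrays, were raised to that floor. Probe sets were kept at a mean of at least 26.9 over the 4 arrays, the median of those means, and the brightest stood for its gene. With 1 array per group no test was made. Ratios and counts were computed in Python 3.11.15 with numpy 2.4.6 and pandas 2.3.3. The computation was run on simulated arrays with known fold changes. That run checks the arithmetic and does not show how reliable a 2-fold difference is on these arrays. The error estimate is the SD of the difference between the log2 ratios of a gene's 2 brightest kept probe sets, over the square root of 2.

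The 31 functional and 11 marker lists were described by counts and medians. The comparison and the lists were chosen with earlier results of these data known. The rule for named genes took the 15 highest and 15 lowest genes above the floor on both wild-type arrays, genes at the floor on 1 array with a bound of at least 4-fold, up to 4 members of each list with the largest ratios, the genes on which lists centre, and Lipe. It gave 189 genes. Other list members that the text names, from Hmgcs1, Fdft1, Sqle and Fdps to Hspe1, Orm2 and Clec4f, were chosen after their values were seen. Promoter windows and coordinates are from RefSeq, GRCm38.p6. The alternatives were quantile normalization, median scaling, cyclic loess, a floor at the median, a pseudocount, no filter, a filter at 100, a filter on the wild-type arrays, averaged probe sets of a gene, no suffix probe sets, no markers of other cell types, and folds of 1.5 and 3.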

Additional observations from a re-analysis of the deposited data

Results flagged for a closer look

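For 11 genes the diet ratio was 2-fold or more in wild type and 2-fold or more the opposite way in HSL-null liver. With 1 array per group, the difference between the genotypes was not tested for any of them, and the values below are the wild-type log2 ratio minus the HSL-null log2 ratio. Mvd, an enzyme of the mevalonate pathway, was the 1 gene higher on FD in wild type and lower in HSL-null liver, with a difference of 3.05 and HSL-null signals of 42.5 on ND and 11.8 on FD.

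The other 10 genes were lower on FD in wild type and higher in HSL-null liver. Cxcl1, the neutrophil chemokine, had a difference of -3.78, with HSL-null signals of 89.6 and 246.5, and the cytokine gene Il1b had -2.49, with 26.1 and 55.3. Ptpn22, a phosphatase of lymphocytes, had -2.66, with 61.4 and 19.5 in wild type against 24.1 and 48.4 without HSL. The immunoglobulin genes Igh-VS107 and Igkv6-23 had -3.37 and -2.62, and Igkv6-23 was the brighter, with 325.4 and 111.7 in wild type against 250.6 and 529.2. Egr1, an immediate early transcription factor, had -2.62, with HSL-null signals of 68.7 and 205.0. Plk1 had -3.13 and T2 -3.65, both from signals under 75. The reversal of Plk1 was not seen at its second kept probe set, which was slightly lower on FD in each genotype. There the wild-type signal went from 35.2 on ND to 31.5 on FD. The HSL-null signal went from 29.6 on ND to 25.9 on FD. Krtap3-1, a keratin-associated protein, had -2.71, with 73.2 and 27.1 against 22.5 and 54.5, and Pip4k2a, a phosphoinositide kinase, had -2.09, with 51.5 and 24.8 against 19.0 and 39.0.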

How the results depend on the processing

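The 38 higher and 114 lower genes became 61 and 74 with median scaling, 144 and 336 with no filter on 8251 genes, and 19 and 27 with a filter at 100 on 2464 genes. A 1.5-fold threshold gave 220 and 461 and a 3-fold threshold 6 and 33. The genes counted kept their direction in every alternative that held them, and 112 of 148 were still 2-fold different with median scaling, 120 of 150 with quantile normalization and 109 of 152 with the floor at the median. Of 418 list medians under the alternatives, 364 kept their sign, 31 in 15 lists took the opposite sign and 23 were 0 there or in the reported value. Among the 18 lists with a median of at least 0.2 in size, 3 of 179 took the opposite sign, which were apolipoproteins at 0.06 and male-biased genes at 0.03, both under quantile normalization, and male-biased genes at 0.19 without suffix probe sets. The cause was not tested. Of 1769 values of named genes, 1710 moved by less than the probe set error and 59 by more. No paired analysis was possible because each group had 1 array, and for the same reason no array could be left out. Signals near the floor limit the lower genes most, since 28 of the 114 had under 50 on their brighter array, against 5 of the 38 higher genes. Error shared by all probe sets of an array and variation between mice were not measured.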

Other observations

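The kept genes were also grouped by the stem of their symbol, which gave 64 stems with at least 8 genes. The families and genes named here were chosen after their values were seen, and no test was made. In wild type, 44% of all kept genes were above 0 and 55.7% below 0. Serine and arginine-rich splicing factors (Srsf) were lower on FD in 8 of 8 genes, with a median log2 ratio of -0.39 in wild type and 0.36 in HSL-null liver. The wild-type median was -0.24 with median scaling, where 6 of 8 were lower, and 7 of 8 were lower under quantile normalization. Srsf5 had 264.3 on ND and 76.9 on FD (-1.78) and Srsf11 112.9 on ND and 64.3 on FD (-0.81), while Srsf3 had 68.6 and 65.7 (-0.06). Immunoglobulin kappa variable genes (Igkv) were lower in 9 of 10, with a median of -0.62, and their probes may cross-hybridise.

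Small subunit proteins of the mitochondrial ribosome (Mrps) were higher on FD in 17 of 20 genes, with a median of 0.33 in wild type and 0.04 in HSL-null liver. Mrps10 had 57.4 on ND and 141.0 on FD (1.30) and Mrps25 41.9 on ND and 97.0 on FD (1.21, or 0.56 at a second probe set), whereas Mrps2 had 89.3 on ND and 57.4 on FD (-0.64). Hydroxysteroid dehydrogenases (Hsd) had a median of 0.50, with 8 of 11 above 0, and 3 of the 11 were also in lists described above. Hsd17b10, a mitochondrial dehydrogenase of isoleucine and steroid breakdown, had 387.4 on ND and 824.8 on FD (1.09), and Hsd3b6, Hsd3b3 and Hsd3b2, related genes whose probes may cross-hybridise, had 60.8 and 100.9, 34.0 and 54.6 and 41.9 and 65.7. Among single genes 2-fold higher and outside the lists were Park7, which encodes the redox-sensitive protein DJ-1, with 726.7 on ND and 1513 on FD (1.06), Retsat, retinol saturase, with 403.3 on ND and 875.1 on FD (1.12), and Abcg2, an efflux transporter, with 61.2 on ND and 132.3 on FD (1.11). A bright gene among the 2-fold lower was Hk1, hexokinase, with 1117 on ND and 468.2 on FD (-1.25).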
